A study of Cicer arietinum with 18 samples.

Results

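The response of chickpea (Cicer arietinum) shoots to aminocyclopropane carboxylic acid (ACC) was examined 27 h after treatment. It is held by 3 of the 18 samples of the series, those whose titles name ACC and 27 h, with 1 sample for each of the genotypes FLIP94-508C, ICC3996 and Lasseter. Each sample is a column of log2 ratios from a spotted 2-colour cDNA array, and each value is the authors' mean over 3 biological replications with dye swaps. The ratio sets treated shoots against untreated control shoots of the same genotype. It is likely treated over control, since treated RNA is labelled as channel 2 and control RNA as channel 1, but this is not stated for the deposited values.

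The groups used here are ACC for 27 h, ACC for 3 h, salicylic acid (SA) for 27 h and methyl jasmonate (MeJA) for 27 h, each with the same 3 genotypes. Plants in all of them were seedlings aged 14 days, and stem and leaf were pooled before RNA was extracted. Cell types within the shoot were therefore not separated, and fewer cells of a type and less RNA per cell cannot be told apart. The doses are not given in the sources used here, nor is whether the compounds were set against the same control plants.

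ACC is the direct precursor of the gaseous hormone ethylene, and plants convert it to ethylene with ACC oxidase. In Arabidopsis, ethylene receptors hold the pathway off until they bind the hormone, after which EIN2 and the transcription factor EIN3 switch on ethylene response factors. The pathway acts with jasmonate in defence against fungi that kill host tissue, and it also promotes leaf ageing. Against ascochyta blight, ICC3996 is known as resistant, Lasseter as susceptible and FLIP94-508C as lying between them. The array identifiers are CA, LS or U plus digits. Of the 715, 0 matched the gene table used here and no column names a gene, so features are given by identifier and no function is assigned.

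An ACC 27 h sample measured 580 to 613 of the 715 features, and 562 were measured in all 3 genotypes. The sample medians were -0.26 for FLIP94-508C, -0.30 for ICC3996 and -0.19 for Lasseter on the log2 scale, so a small fall is part of the values as deposited. A feature is called higher or lower below where its mean over the 3 genotypes differed from 0 with an adjusted p under 0.05 in limma's moderated test. That fit held all 18 samples, the 6 compound-by-time groups and a genotype term, and 523 features. The genotypes are the repeats (n = 3), and no genotype has an error of its own. The genotype term removes any difference between genotypes that is shared by all 6 groups. A p-value therefore allows only for genotype differences that vary with compound or time, and for measurement error. Each SE and p-value rests on 1 spread per feature pooled over the 6 groups, not on the 3 ACC 27 h values alone. The SD over features was 0.95 to 1.06 in the ACC 27 h samples and 0.28 to 1.04 in the MeJA 27 h samples. An SE can thus be smaller or larger than the 3 values beside it would give.

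Features well below control were similar in number in the 3 genotypes, and those well above it were not. Features at least 2-fold lower than control numbered 118 for FLIP94-508C, 127 for ICC3996 and 124 for Lasseter, a mean of 123 ± 4.58 (SD, n = 3). Features at least 2-fold higher numbered 20 for FLIP94-508C, 75 for ICC3996 and 21 for Lasseter, a mean of 38.7 ± 31.5 (SD, n = 3). The ICC3996 sample thus had the most features above control. Were the deposited ratio control over treated, all directions given here would turn, and ICC3996 would have the most falls. It also had the widest middle of the 3 samples, with an interquartile range of 1.39 against 1.13 in FLIP94-508C and 0.96 in Lasseter (log2), and its part in the count of rises was not tested.

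Counts in both directions together were 161.7 ± 35.1 after 27 h of ACC and 123 ± 91.3 after 3 h of ACC (SD, n = 3 each). The 3 h counts ran from 36 in ICC3996 to 218 in FLIP94-508C and enclosed all 3 of the 27 h counts. SA at 27 h had 141 ± 37.4 such features and MeJA at 27 h 25.3 ± 33.5 (SD, n = 3 each). The ACC 27 h counts lay above every MeJA 27 h count, which reached 64 in ICC3996, and overlapped those of SA. An exact permutation test, two-sided and not paired by genotype, gave p = 0.1 against MeJA (adjusted p = 0.3). That p is the smallest that 3 samples against 3 allow when the pairing is not used. The same exact test gave p = 0.5 against ACC at 3 h and p = 0.6 against SA at 27 h (adjusted p = 0.6 for both, over 3 comparisons).

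**Figure D1:**
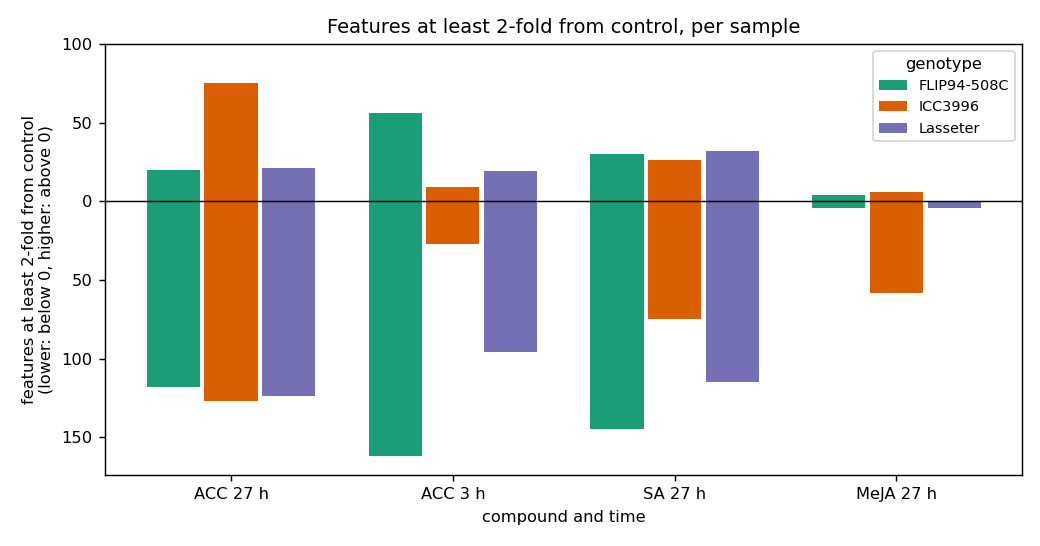
Number of array features at least 2-fold from control (y axis; higher drawn above 0, lower below 0) in each sample, by compound and time (x axis) and genotype (colour), with 1 bar in each direction per sample. After 27 h of ACC the falls lie between 118 and 127 in every genotype, and ICC3996 has 75 rises against 20 and 21.

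Over the 3 genotypes, 99 of 523 features passed (18.9%), 34 higher (6.5%) and 65 lower (12.4%). At an unadjusted p under 0.05 there were 197 (37.7%). The mean log2 ratios of the 34 rises ran from 0.56 to 2.98, with a median of 0.97, and those of the 65 falls from -0.57 to -2.96, with a median of -1.29. Over all features tested the median was -0.20, with 209 above 0 and 314 below. The split of calls depends on where 0 is set. With sample medians over all features subtracted, 124 passed, 79 higher and 45 lower, and the median of the features tested became 0.05. With medians over the tested features alone subtracted, an alternative chosen after seeing the data, 95 passed, 47 higher and 48 lower.

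The count of 99 rested in part on single samples. It was 21 without the ICC3996 sample and 47 without the FLIP94-508C sample, and 85 without the Lasseter sample. Scaling the samples to equal SD left 51 features and scaling them to equal interquartile range left 3. Scaling covers all 18 samples, shrinks wide ones and stretches narrow ones. It thus changes the spread pooled over the 6 groups as well as the ACC values. Interquartile ranges were 0.96 to 1.39 in ACC 27 h samples and 0.31 to 0.70 in MeJA 27 h samples. How much of the drop came from this was not tested.

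A 95% interval lying wholly beyond 2-fold was found for 11 features, 4 higher and 7 lower. For 229 features (43.8%) the interval lay wholly within 2-fold of control, so a mean change of 2-fold was outside it. For the remaining features the data did not place the mean on either side of 2-fold.

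U280 was the highest call, at 2.84 (FLIP94-508C), 3.93 (ICC3996) and 2.18 (Lasseter) (log2 ratios). Each of these genotypes was more than 4-fold above its control, and the mean of 2.98 (SE 0.37, adjusted p = 0.000561 in limma) equals 7.90-fold. For LS0185 the FLIP94-508C value was 1.90, that of ICC3996 2.70 and that of Lasseter 2.41, with a mean of 2.34 (SE 0.42, adjusted p = 0.00361). ICC3996 was the highest genotype for both.

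U107 was the lowest call, at -2.23 (FLIP94-508C), -2.42 (ICC3996) and -4.23 (Lasseter), with a mean of -2.96 (SE 0.39, adjusted p = 0.000561). Lasseter was well below the other genotypes for U107. U319 was nearly even, at -2.75 (FLIP94-508C), -2.39 (ICC3996) and -2.86 (Lasseter), with a mean of -2.67 (SE 0.41, adjusted p = 0.00107). The methods' t-test, run here on the genotype values alone and adjusted, kept none of these 4 features. With samples scaled to equal SD, U319 was at -2.11 and no longer passed (adjusted p = 0.0648).

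Agreement in direction was close among the features called. All 34 rises were above 0 in every genotype. Of the 64 falls with a value in all 3 genotypes, 61 were below 0 in every genotype, and the other 3 were slightly above 0 in FLIP94-508C. These 3 were U466, CA0702 and U233, at 0.09, 0.11 and 0.19 in FLIP94-508C (the last pair named after their values were seen). Calls are features whose mean is far from 0 for their spread over all 18 samples, so this agreement follows in part from how calls are made. Among all 562 features measured in every genotype, 211 were below 0 in all 3 and 108 above 0 in all 3, while 131 were above 0 in 1 genotype and 112 in 2.

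The number of genotypes past 2-fold varied among the calls, of which 16 rises and 53 falls had a mean of at least 2-fold. Of the 34 rises, 4 were at least 2-fold higher in all 3 genotypes, and 10 were so in 2, 13 in 1 and 7 in none. Of the 64 falls, 12 were at least 2-fold lower in all 3 genotypes, 39 in 2, 11 in 1 and 2 in none. The range over genotypes had a median of 0.81 for the rises and 1.27 for the falls (log2), against 0.89 over all features tested.

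The rises were largest in ICC3996. Their median log2 ratio was 0.85 for FLIP94-508C, 1.42 for ICC3996 and 0.61 for Lasseter, and ICC3996 held the highest value for 28 of the 34. FLIP94-508C was highest for 4 and Lasseter for 2, and Lasseter was lowest for 22. With the samples scaled to equal interquartile range, ICC3996 was highest for 20, FLIP94-508C for 9 and Lasseter for 5. The 34 were chosen on a mean that includes the ICC3996 value. Over all features, ICC3996 also had the most rises of 2-fold, 75 of 580 measured against 20 of 596 in FLIP94-508C and 21 of 613 in Lasseter. How often ICC3996 was highest among all features was not counted. As deposited, the falls showed no such order, with medians of -1.29 in both FLIP94-508C and ICC3996 and -1.18 in Lasseter. The lowest value of a fall belonged to FLIP94-508C for 20, ICC3996 for 19 and Lasseter for 25, and at equal interquartile range to FLIP94-508C for 23, ICC3996 for 8 and Lasseter for 33.

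**Figure D2:**
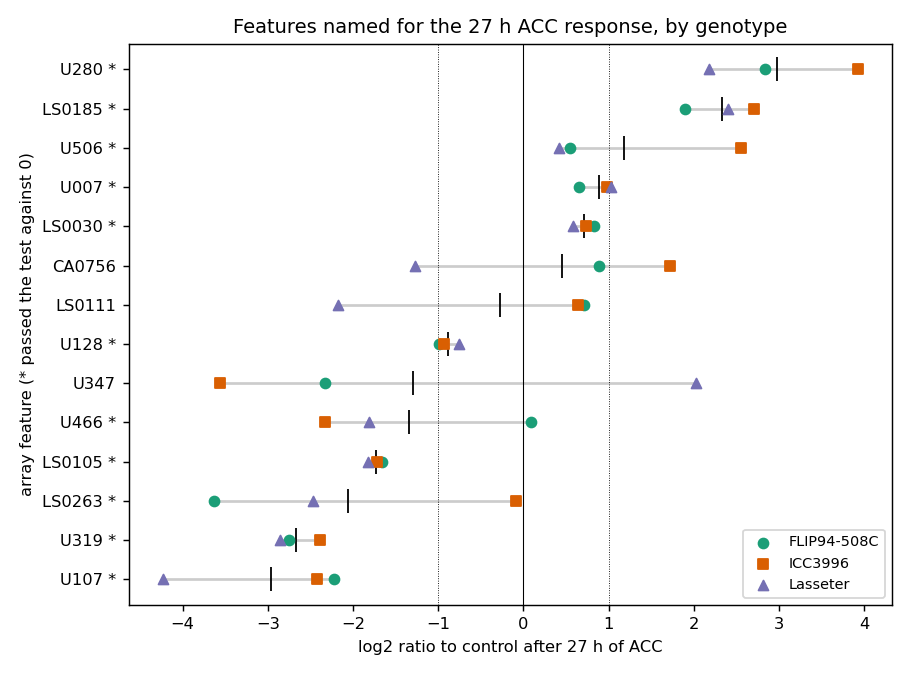
Log2 ratio to control after 27 h of ACC (x axis) for the features named for the response (y axis), with 1 symbol per genotype, a grey line for the range, a black tick for the fitted mean and dotted lines at 2-fold. An asterisk marks features that passed the test against 0. LS0105 spans only -1.66 to -1.82, whereas U347 runs from -3.56 in ICC3996 to 2.02 in Lasseter.

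The most even rise was LS0030, at 0.83 for FLIP94-508C, 0.73 for ICC3996 and 0.59 for Lasseter (mean 0.72, SE 0.17, adjusted p = 0.0106). U007 was next, at 0.66, 0.98 and 1.03 in the same order (mean 0.89, SE 0.19, adjusted p = 0.00693). Both are modest changes of under 2-fold. The most even fall was LS0105, at -1.66 for FLIP94-508C, -1.72 for ICC3996 and -1.82 for Lasseter (mean -1.74, SE 0.23, adjusted p = 0.000595). U128 was at -0.98, -0.93 and -0.75 (mean -0.89, SE 0.21, adjusted p = 0.0125). LS0105 was thus a 3.33-fold fall with almost the same size in each genotype. It passed without any 1 of the 3 samples, whereas LS0030 and U128 each passed in only 1 of the 3 fits that left out a sample, and U007 in 2.

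The least even calls each had 1 genotype apart from the other two. U506 was at 0.55 (FLIP94-508C), 2.56 (ICC3996) and 0.42 (Lasseter) (mean 1.18, SE 0.33, adjusted p = 0.0252). Without the ICC3996 sample its mean was 0.49 and it did not pass (adjusted p = 0.388), nor did it without FLIP94-508C (adjusted p = 0.0519). LS0263 was at -3.63 (FLIP94-508C), -0.09 (ICC3996) and -2.47 (Lasseter) (mean -2.06, SE 0.57, adjusted p = 0.0234). Its mean was -3.18 without ICC3996 (adjusted p = 0.00767), and it did not pass without FLIP94-508C (adjusted p = 0.226) or Lasseter (adjusted p = 0.103). U466 was at 0.09 (FLIP94-508C), -2.32 (ICC3996) and -1.81 (Lasseter) (mean -1.35, SE 0.43, adjusted p = 0.0420). It did not pass without ICC3996 (adjusted p = 0.446) or Lasseter (adjusted p = 0.0888), nor with sample medians subtracted (adjusted p = 0.0558). U280, described above, had the next largest range among the rises.

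Across all features, the correlation was highest between FLIP94-508C and ICC3996. Pearson's r was 0.74 between FLIP94-508C and ICC3996 (568 features), 0.40 between FLIP94-508C and Lasseter (582 features) and 0.45 between ICC3996 and Lasseter (567 features). Spearman's rho was 0.76, 0.33 and 0.42 for the same pairs. These are descriptions across features of 3 samples, which share the array design and the processing but no RNA as far as the labels show, and features are not independent replicates. The sign was the same for 472 of 568 features between FLIP94-508C and ICC3996, 374 of 582 between FLIP94-508C and Lasseter, and 380 of 567 between ICC3996 and Lasseter.

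At 3 h of ACC the same pairs had an r of -0.04, 0.37 and 0.24, so that the pair with the highest r at 27 h had the lowest at 3 h. The ICC3996 sample at 3 h was narrow, with an interquartile range of 0.41 against 1.55 in FLIP94-508C. In it 34.3% of features lay within 0.1 of 0, against 5.81% in FLIP94-508C, and any effect of this on r was not tested. After 27 h of SA the r values were 0.59, 0.62 and 0.57, and after 27 h of MeJA 0.22, 0.30 and 0.32. Each value compares 1 sample with 1 sample, and no difference between them was tested.

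**Figure D3:**
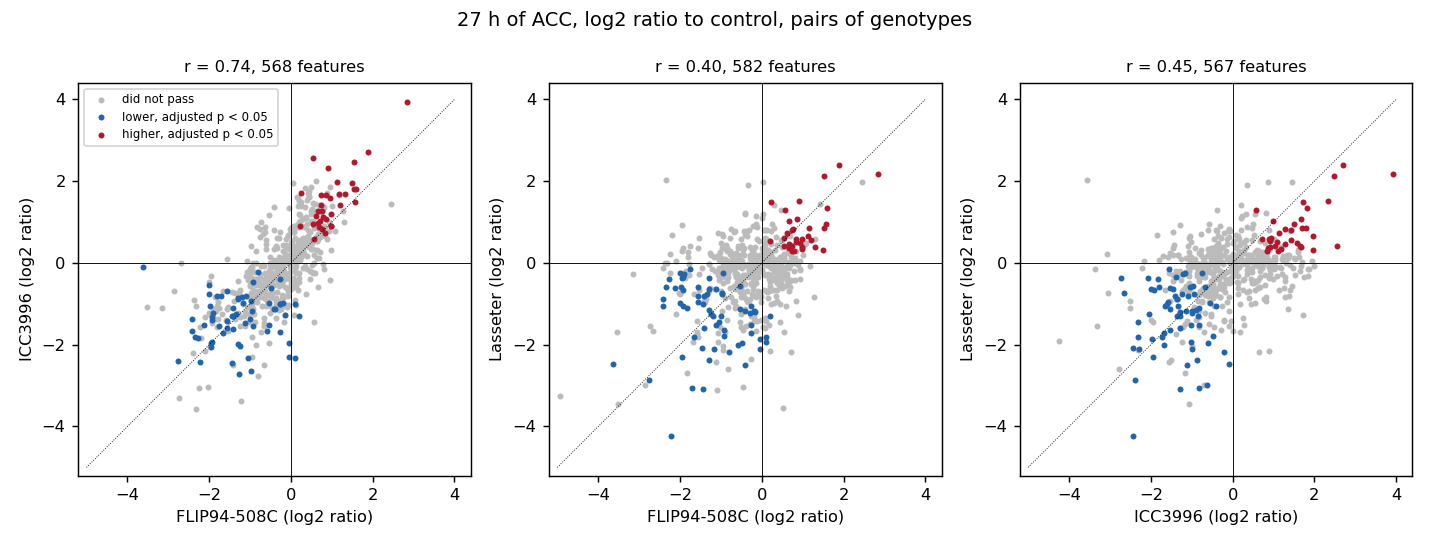
Log2 ratio to control after 27 h of ACC in 1 genotype (x axis) against another (y axis), with 1 point per array feature and a dotted line of equal values. Red points were called higher and blue points lower over the 3 genotypes. The points scatter less for FLIP94-508C against ICC3996 (r = 0.74) than in both panels with Lasseter (r = 0.40 and 0.45).

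The shared falls followed the same order. FLIP94-508C and ICC3996 had 72 features at least 2-fold lower in both, which is 67.3% of the FLIP94-508C falls and 59.5% of the ICC3996 falls measured in both. FLIP94-508C and Lasseter shared 39, which is 35.1% and 39.4% of their falls, and ICC3996 and Lasseter 44, which is 35.8% and 48.9%. Of the rises, FLIP94-508C and ICC3996 shared 16, which is 94.1% of the 17 in FLIP94-508C but 21.3% of the 75 in ICC3996. Those 75 were among 568 features. FLIP94-508C and Lasseter shared 6 rises, 31.6% of 19 and 28.6% of 21. ICC3996 and Lasseter shared 8, 10.7% of 75 and 40.0% of 20.

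Of the 562 features with a value in every genotype, 50 were at least 2-fold lower in FLIP94-508C and ICC3996 only. Their medians were -1.78 for FLIP94-508C, -1.41 for ICC3996 and -0.27 for Lasseter, where 36 of the 50 were below 0. The Lasseter sample had a median of -0.19 over all features, and the share of all features below 0 in it was not counted. A further 21 were so in ICC3996 and Lasseter only and 11 in FLIP94-508C and Lasseter only. Falls of 2-fold in a single genotype numbered 22 for FLIP94-508C, 28 for ICC3996 and 34 for Lasseter. The 34 Lasseter falls had medians of -0.19 in FLIP94-508C and -0.27 in ICC3996. These were near the medians of those samples over all features, -0.26 and -0.30.

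Rises of 2-fold in a single genotype numbered 1 for FLIP94-508C, 56 for ICC3996 and 12 for Lasseter. The 56 of ICC3996 had medians of 0.50 for FLIP94-508C, 1.33 for ICC3996 and 0.04 for Lasseter, and 52 were above 0 in FLIP94-508C against 29 in Lasseter. Most of these features were therefore also above control in FLIP94-508C at under 2-fold. In Lasseter they lay on both sides of control, from -1.27 to 0.83. The sample medians over all features were -0.26 in FLIP94-508C and -0.19 in Lasseter.

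A fall of 2-fold or more was shared by all 3 genotypes for 20 features (3.56%), and a rise of that size for 5 (0.89%). The 5 were U280, LS0185, U096, U497 and CA0709, of which U497 and CA0709 were named after their values were seen. CA0709, at 2.45 for FLIP94-508C, 1.45 for ICC3996 and 1.98 for Lasseter, was not in the fit because too few samples of another group measured it. With sample medians subtracted, 8 features were lower and 11 higher.

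Features 2-fold apart in opposite directions were few, 3 of 562. U347 was at -2.33 (FLIP94-508C), -3.56 (ICC3996) and 2.02 (Lasseter), a gap of 5.59. CA0756 was at 0.89 (FLIP94-508C), 1.72 (ICC3996) and -1.27 (Lasseter), a gap of 2.99. For both, Lasseter was on the other side of control from the rest. LS0617, named after its values were seen, was at -0.40 (FLIP94-508C), 1.37 (ICC3996) and -1.12 (Lasseter). None of the 3 passed the test of the mean, and with 1 sample per genotype the gaps themselves have no test.

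U347 lay 4.97 above the mean of the other genotypes in Lasseter and 3.41 below it in ICC3996, the largest such deviations for those genotypes in those directions among the 523 features tested. Without the Lasseter sample it was at -3.12 and passed (adjusted p = 0.0106 in limma). Among the same features LS0111 lay furthest below in Lasseter, at 0.71 for FLIP94-508C, 0.64 for ICC3996 and -2.17 for Lasseter. Of the features tested, LS0263 and U466, given above, held the largest deviations of FLIP94-508C, below and above, and LS0263 that of ICC3996 above.

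The 27 h response was then set against the same compound at 3 h. LS0185 was the only 1 of 523 features that differed (0.191%), and 72 had an unadjusted p under 0.05 (13.8%). LS0185 was at 1.90, 2.70 and 2.41 after 27 h and at -3.12, 0.39 and -1.43 after 3 h in FLIP94-508C, ICC3996 and Lasseter. The 3 later values lay above all 3 earlier ones, and the difference was 3.72 (SE 0.60, adjusted p = 0.0153 in limma). The 3 h values were themselves far apart. The count was 0 without the 27 h sample of FLIP94-508C or of ICC3996 or the 3 h sample of Lasseter, and 3 without the 27 h sample of Lasseter. It was 19 without the 3 h sample of FLIP94-508C and 11 without that of ICC3996.

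A single call does not show that the other features had the same level at both times. The SE of a difference had a median of 0.37, and for 179 features (34.2%) the 95% interval lay within 2-fold. The 34 features called higher at 27 h had a median of 0.97 at 27 h and 0.32 at 3 h of ACC, against -0.20 and -0.17 over all features tested. The 65 called lower had a median of -1.29 at 27 h and -0.57 at 3 h. The features were chosen on their 27 h values, so these medians are given as levels only.

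ACC differed from SA at 27 h for 7 features (1.34%), 3 higher and 4 lower under ACC, with 94 at an unadjusted p under 0.05 (18.0%). U152 was at 1.57, 1.5 and 0.94 under ACC and at -0.94, -0.94 and -1.15 under SA in FLIP94-508C, ICC3996 and Lasseter. It was above control in every genotype under ACC and below it in every genotype under SA, a difference of 2.35 (SE 0.33, adjusted p = 0.00644). U096 was at 1.53, 2.47 and 2.12 under ACC and at 0.86, -0.03 and -1.04 under SA, a difference of 2.11 (SE 0.43, adjusted p = 0.0279). The ACC and SA values of U096 did not overlap.

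LS0342 ran the other way, at -1.45, -2.45 and -2.07 under ACC and at 0.39, 0.39 and 0.58 under SA in FLIP94-508C, ICC3996 and Lasseter. The difference was -2.44 (SE 0.37, adjusted p = 0.0145), and its fall under ACC was a call of its own (mean -1.99, SE 0.26, adjusted p = 0.00107). CA1198 was at 0.45, 0.44 and -1.01 under ACC and at 2.52, 2.13 and 3.01 under SA, a difference of -2.59 (SE 0.46, adjusted p = 0.0161). All 3 SA values of CA1198 were far above control, and its ACC mean of -0.04 did not pass. The other 3, named after their values were seen, were U262 (difference 1.08), U470 (-1.59) and U241 (-1.11).

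The count of 7 was 0 without the ICC3996 sample under ACC or the Lasseter sample under SA, 2 without the Lasseter sample under ACC and 4 without the ICC3996 sample under SA. It was also 0 with the samples scaled to equal spread, and with the genotype term left out 14 passed. U152 passed in 4 of the 6 fits that left out a sample, with adjusted p of 0.0708 without ICC3996 under ACC and 0.0719 without Lasseter under SA. For 153 features (29.3%) the 95% interval of the difference lay within 2-fold. The 34 rises had a median of 0.24 and the 65 falls a median of -0.58 under SA at 27 h.

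ACC differed from MeJA at 27 h for 9 features (1.72%), 4 higher and 5 lower under ACC, with 87 at an unadjusted p under 0.05 (16.6%). LS0185 was at 1.90, 2.70 and 2.41 under ACC and at -0.56, -0.69 and -0.20 under MeJA, a difference of 2.82 (SE 0.60, adjusted p = 0.0407). U280 was at 2.84, 3.93 and 2.18 under ACC and at 0.47, 1.22 and 0.41 under MeJA, a difference of 2.28 (SE 0.52, adjusted p = 0.0458). In both the ACC values lay wholly above those of MeJA. Against SA at 27 h neither feature passed. LS0185 was at 1.80, 0.93 and 2.57 under SA, a difference of 0.57 (SE 0.60, adjusted p = 0.611). U280 was at 0.44, 0.81 and 1.67 under SA, a difference of 2.01 (SE 0.52, adjusted p = 0.0649).

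U107 was at -2.23, -2.42 and -4.23 under ACC and at 0.09, -0.66 and -0.80 under MeJA, a difference of -2.50 (SE 0.55, adjusted p = 0.0407). LS0342 was at -0.28, -0.02 and 0.39 under MeJA, a difference of -2.02 (SE 0.37, adjusted p = 0.0407). LS0342 was therefore lower after ACC than after either other compound at 27 h, and U096 and U241 also passed both comparisons in the same directions. The remaining 3, named after their values were seen, were U497 (difference 1.66), CA1108 (-1.87) and U071 (-1.64).

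All 9 adjusted p-values lay between 0.0407 and 0.0499, and leaving out any 1 of the 6 samples gave 0 or 3 calls. With sample medians subtracted the count was 0. The 34 rises had a median of 0.19 and the 65 falls a median of -0.16 under MeJA at 27 h, against -0.04 over all features tested. Comparisons of ACC with SA and with MeJA share the ACC samples and may share control plants, so only their own values are given.

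**Figure D4:**
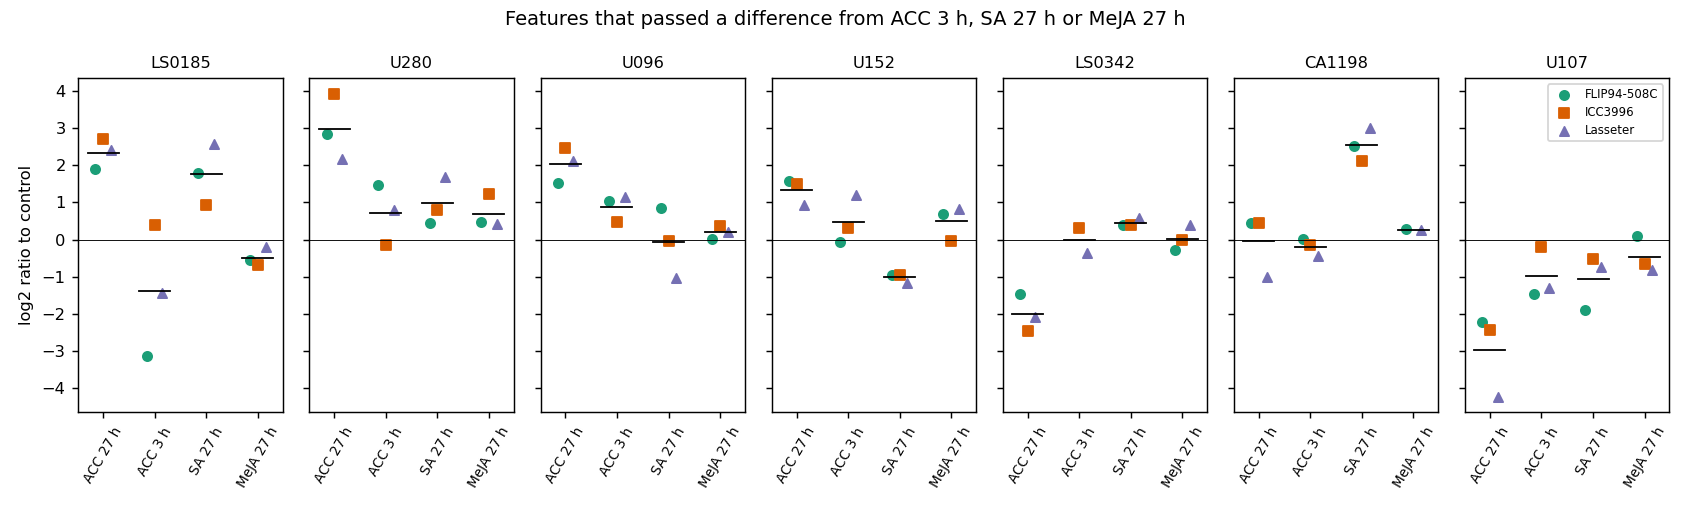
Log2 ratio to control (y axis) of 7 features after 27 h of ACC, 3 h of ACC, 27 h of SA and 27 h of MeJA (x axis), with 1 symbol per genotype and a black line at the mean of the measured samples. LS0342 lies at -1.45 or lower in every ACC 27 h sample and above 0 in every SA 27 h sample, and U152 lies above 0 after ACC and below it after SA at 27 h.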

How the data were processed

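The authors deposited log2 ratios. Per the series' design text, slides were quantified in ImaGene, local background was subtracted, flagged spots were omitted, Lowess normalisation was applied and a shifted logarithm was taken. The shift, of a size not stated here, pulls dim spots towards 0, so folds are on the shifted scale. Precision is limited by the number of arrays and by omitted spots (14.3% to 18.9% of features per ACC 27 h sample).

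Features with at least 2 values in each of the 6 compound-by-time groups were tested (523 of 715) with limma 3.58.1 in R 4.3.3, as means or differences of group means with a genotype term and up to 10 residual degrees of freedom. All tests are two-sided, and adjusted p-values (Benjamini-Hochberg, all features tested) come from limma except where the methods' t-test is named. That t-test was run here on each feature's genotype values alone, paired by genotype for a difference, and not on the authors' replications. The genotype pairs the samples of different groups, and the permutation test of counts did not use this pairing. The fit was tested on simulated data in which a feature had the same spread in every group. For the response it called 76.4% of 2-fold and 96.5% of 4-fold changes, and 3.29% of its calls were false. The spread of the real samples differed between groups, and the simulation did not cover that. Named features are, in each comparison, up to 2 in each direction with the largest change among those that passed and had the same sign in all 3 genotypes, then the most and least even calls, the largest deviation of each genotype among features tested, and the 2 largest gaps between genotypes in opposite directions. The samples, rules and tests were chosen with earlier results of these data known. Gene lists for ethylene, defence, phenylpropanoids, oxidative burst and photosynthesis could not be matched to any feature (0 of 715).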

Additional observations from a re-analysis of the deposited data

Results flagged for a closer look

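LS0185 differed between the 2 ACC times by 3.72 (27 h minus 3 h, log2), by a test of the difference itself. U347 and CA0756 lay on opposite sides of control in Lasseter and in the other genotypes at 27 h of ACC, with gaps of 5.59 and 2.99, and these differences were not tested. A control feature named CA0018 NORMCON3, kept out of all tests, was at -2.24 in FLIP94-508C and -2.65 in ICC3996 after 27 h of ACC and had no value in Lasseter. It was also below 0 in the other groups, at -2.33, -0.71 and -2.33 after 3 h of ACC, -0.89, -2.83 and -1.31 after 27 h of SA, and -0.17, -0.12 and -0.20 after 27 h of MeJA (FLIP94-508C, ICC3996 and Lasseter in turn). The low values were thus shared by ACC at 3 h and SA at 27 h. The other control features with values, NORMCON2 and NORMCON4, lay between -0.06 and 0.22 in the ACC 27 h samples.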

How the results depend on the processing

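For the response at 27 h, 51 features passed with equal SD, 51 in a fit of the 3 samples alone and 3 with equal interquartile range. The difference from 3 h had 10 calls with sample weights and 0 with equal SD, equal interquartile range or only the 6 samples compared. That from SA had 0 with equal SD or equal interquartile range, 2 over features measured in all samples, 20 with sample weights and 23 with only the samples compared. That from MeJA had 0 with either set of sample medians subtracted, 3 with equal SD, 2 with equal interquartile range, 5 with a variance trend, 14 over features measured in all samples, 22 with sample weights and 24 with no feature filter. Leaving out 1 sample gave 21 to 85 calls for the response, 0 to 19 against 3 h, 0 to 7 against SA and 0 to 3 against MeJA. Without the genotype term, which is the block that pairs the samples, the 4 counts were 102, 5, 14 and 13. The methods' t-test gave, in the same order, 1, 0, 0 and 1 after adjustment and 74, 26, 49 and 46 before it. Where limma gave 0 calls, between 25 and 82 features had an unadjusted p under 0.05. At 1.5-fold the mean count per sample was 297 and that in all 3 genotypes 82, and at 3-fold they were 69.7 and 6. LS0111 was at 0.077 with sample weights. Over the fits without 1 sample LS0111 ran from -0.88 to 0.84, CA0756 from -0.17 to 1.29 and U347 from -3.12 to 0.17, the change of sign falling without Lasseter for LS0111 and without ICC3996 for CA0756 and U347. The cause of these shifts was not tested. The equal interquartile ranges and the medians of tested features were chosen after seeing the data.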

Other observations

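The 3 identifier classes had calls at 27 h of ACC in the following shares, with no test. Among LS features 11 of 88 tested were called (12.5%), among CA features 19 of 100 (19.0%) and among U features 69 of 335 (20.6%), against 18.9% of all features tested.

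Of the 192 features outside the fit, 81 had no value in any ACC 27 h sample, 41 had 1 value and 70 had 2 or 3. Of these 70, 18 lay 2-fold or more below control and 2 lay 2-fold or more above it in every genotype that measured them.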
